A study of Mus musculus with 4 samples.

Results

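The sites described here are adenosines read as N6-methyladenosine (m6A) in most, but not nearly all, reads at the site in both wild-type libraries. They did not stay at such a level in both Mettl3 knockout libraries. They were chosen from 881997 sites listed in any of 4 libraries. A site had to be in both wild-type lists with a coverage of at least 50 reads and a level from 0.5 to under 0.9 in each, and had to be below 0.5 in, or missing from, at least 1 knockout list. Of 16024 sites covered by at least 50 reads in both wild-type lists, 1525 had such levels, and 29 of these stayed at 0.5 or above in both knockout lists and were left out, which leaves 1496 sites. They are called mid-level sites below. Because the wild-type levels and the knockout lists chose the sites, those values are given as a description, with no test.

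m6A is the most common internal modification of messenger RNA. METTL3 is the catalytic subunit of the nuclear complex that writes it, METTL14 and VIRMA are partners in that complex, and YTH-domain proteins bind the modified base. The mark is known to concentrate near stop codons and in 3′ untranslated regions, and it shortens the life of many transcripts, among them mRNAs of developmental regulators in stem cells.

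The libraries came from mouse organoids collected after 4 days of differentiation towards retina in medium that held AGN. The wild-type group (WT, 2 libraries) was the Rx:GFP line. The knockout group (KO, 2 libraries) was a Mettl3 KO line, which per the labels' growth protocol also harbours a doxycycline-inducible HA-METTL3 transgene. No addition of doxycycline is recorded, the treatment label is "No" for all 4 libraries, and all carry the same batch label. The labels do not say how many clones the knockout line stands for, nor whether the replicates were separate cultures, so every spread and p-value below measures these libraries and may be technical. The assay was GLORI m6A-seq, in which a chemical reaction turns unmodified adenosine into inosine, read as G, while m6A is still read as A. The level of a site is the number of unconverted (A) reads divided by all A and G reads there, and this sum is the coverage.

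The WT lists hold 227298 and 288516 sites and the KO lists 230299 and 215850. No list holds a site below a coverage of 15, 5 unconverted reads or a level of 0.1, or with a deposited p-value above 0.004. A site missing from a list may have been converted or too thinly covered, or may have missed the p-value limit. Mettl3 itself had a gene coverage of 1.01 and 0.802 times the median gene in the WT libraries and 1.16 and 1.04 in the KO libraries. Which part of the gene was deleted is not in the labels, so this is no check of the knockout. The eye field gene Rax had 20 and 35 listed sites in WT and 0 in either KO list. Of the marker lists, 5, 5, 4 and 4 of 7 eye field genes had a listed site in WT replicates 1 and 2 and KO replicates 1 and 2, and the summed coverage of the 4 tested was 23.2, 24.8, 8.02 and 7.96 times the median gene. The 4 did not move together: 2 were called lower and 1 higher in KO, so the sum hides a gene that rose. For neural genes, 5 of 5 were listed in every library and their summed coverage was 25.4, 28.9, 20.9 and 18.3. Of these 5, 2 were called lower and 0 higher in KO. For pluripotent cells the listed genes were 5, 4, 3 and 3 of 5, and the summed coverage of the 3 tested was 4.67, 5.12, 3.17 and 2.43. Of these 3, 2 were called lower and 0 higher in KO. In the same order, listed genes were 0, 1, 1 and 0 of 4 for mesoderm, 2, 2, 0 and 0 of 5 for endoderm, 1, 2, 2 and 2 of 3 for neural crest and 1, 2, 2 and 2 of 3 for surface ectoderm. Krt18, of the last list, had a gene coverage of 0.991 and 0.945 in WT and 0.671 and 0.498 in KO (limma log2 change -0.74, adjusted p = 0.0412), while Krt8, Sox17 and T had 0 sites in every list. The part of such differences between the groups in the results below was not tested. The submitters' processing notes name mm10 as the genome build, but only 3.32% of the gene features matched by name start within 1000 bases of their start in a GRCm38 (mm10) annotation. Of 3360 listed sites inside GRCm38 promoter windows, 776 (23.1%) have an A on their strand in that sequence, though every site should. The positions thus do not match GRCm38 as read here. Which build they are on is not settled, and they are printed as the lists give them.

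In the WT libraries the mid-level sites had a median level of 0.687 in replicate 1 and 0.684 in replicate 2. Their median coverage was 129 reads in replicate 1 and 162 in replicate 2, with 893 sites at 100 reads or more in both and 116 at 500 or more. The levels of a site differed between the replicates by a median of 0.0668. For 599 sites the difference was under 0.05, and for 114 sites (7.62%) it was over 0.2. A site at a coverage of 50 has a wide counting error, so levels of single sites near this minimum are imprecise.

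**Figure D1:**
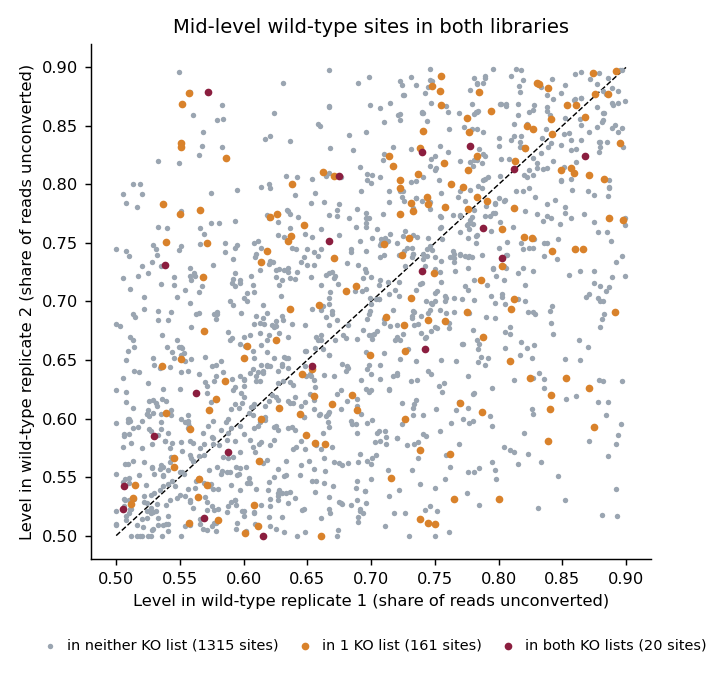
Level of each of the 1496 mid-level sites in WT replicate 1 (x axis) and WT replicate 2 (y axis), as the share of reads unconverted; each point is a site, coloured by whether 0, 1 or both KO lists hold it, and the dashed line marks equal levels. The 161 sites in 1 KO list and the 20 in both are spread over the whole range, and the levels differ between replicates by a median of 0.0668.

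Values just inside and just outside the thresholds were close to each other. The lowest mean levels inside were a site outside every listed feature on chromosome 10, with 0.50 and 0.509, a site in Tubgcp3, with 0.50 and 0.51, and a site in Rtn4, with 0.512 and 0.50 in WT replicates 1 and 2. Just below lay a site of Drg1 at 0.499 and 0.515, and 1 of Gspt1 at 0.576 and 0.499. At the upper limit, sites of Lrrfip1 (0.892 and 0.897), Rsl24d1 (0.895 and 0.898) and Chmp1a (0.897 and 0.898) were inside. Txndc5, with 0.901 and 0.894, was outside. Of the 29 sites left out for their KO levels, the nearest to the limit lay outside every feature on chromosome 19, at 0.592 and 0.579 in WT and 0.641 and 0.544 in KO.

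Most mid-level sites were absent from the KO lists. Neither KO list held 1315 of the 1496 sites (87.9%, 95% Wilson interval 86.2 to 89.5), 161 (10.8%) were in 1 KO list and 20 (1.34%) in both. KO replicate 1 held 83 of the sites (5.55%) and KO replicate 2 held 118 (7.89%). All such intervals cover counting error only, since sites of a transcript share reads and PCR copies are not independent molecules.

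A site can be missing because its transcript was thinly read, so the coverage a site would have had in each KO library was estimated. This expected coverage is the WT coverage of the site multiplied by the ratio of KO to WT coverage of its gene. Of 1080 sites with at least 50 expected reads in both KO libraries, 957 (88.6%, 86.6 to 90.4) were in neither list. Of 294 with at least 200, 277 were in neither (94.2%, 90.9 to 96.4). An expected coverage of 50 reads does not by itself ensure listing. At this limit WT replicate 2 held 62.5% of the sites chosen on WT replicate 1 alone. The reverse share was 56.4%. This choice on a single list is described below. Where a KO list did hold a site, its measured coverage was a median of 0.914 times the expected value in KO replicate 1 (61 sites) and 0.856 times in replicate 2 (94 sites). A measured alternative was the coverage of another listed site nearby. For 461 sites both KO lists held a site with at least 50 reads within 100 bases, and 396 of these (85.9%, 82.4 to 88.8) were themselves in neither list. Listing favours well covered positions, so this neighbour coverage runs high. The ratios of measured to expected coverage also come from listed sites only and may run high.

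Among sites that both KO lists lacked and whose expected coverage was at least 50 reads in both KO libraries, the 10 best covered in WT were in Slc2a1, Trir, Ppm1g, Clta, Hnrnpa1, Actg1 (2 sites), Hnrnpdl, Tuba1c and H2az1. Slc2a1 encodes the glucose transporter GLUT1. Its site (chromosome 4, position 118994147, plus strand), 1033 bases before the feature end, had 2136 of 2914 reads unconverted in WT replicate 1 (0.733) and 2621 of 3361 in replicate 2 (0.78). Neither KO list held it at an expected coverage of 2206 and 1385 reads, while the lists held other sites 100 and 86 bases away with 987 and 925 reads. Trir (chromosome 8, position 85756752, plus strand) encodes a ribonuclease that interacts with telomerase RNA. Its site, 163 bases before the end, had 1603 of 2808 reads unconverted in WT replicate 1 (0.571) and 1760 of 3374 in replicate 2 (0.522), and 4700 and 3917 reads were expected in KO. The expected KO coverage was above the coverage measured in WT. The nearest sites in the KO lists, 145 and 137 bases away, had only 168 and 166 reads. At the other deep sites such neighbours also had fewer reads than expected, or a KO list had none nearby. The high expected coverage was therefore not matched by measured neighbour coverage at these sites.

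Actg1, the gene of cytoplasmic gamma-actin, held a pair of such sites. The site 695 bases before the end (chromosome 11, position 120237211, minus strand) stood at 0.872 of 1799 reads and 0.89 of 1903 reads in WT replicates 1 and 2. The other, 1562 bases before the end (position 120238078), stood at 0.899 of 1629 and 0.871 of 2038. At least 1384 reads were expected at either site in each KO library, and neither list held them. Both sites lie near the upper limit of the chosen range.

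The other 6 of these 10 sites lay closer to the lower limit. In Hnrnpa1, a splicing factor, the WT levels were 0.537 and 0.509, and in Hnrnpdl, a related RNA-binding protein, 0.622 and 0.62. In Ppm1g, a protein phosphatase of splicing factors, they were 0.539 and 0.526, and in Clta, a clathrin light chain, 0.565 and 0.549. Tuba1c, an alpha-tubulin, had 0.674 and 0.715, and H2az1, the histone variant H2A.Z, had 0.532 and 0.527. In all 6 the replicates differed by under 0.05 and the KO lists held nothing at the site. Across all mid-level sites, the deepest lay outside every listed feature on chromosome 2 (position 23390912, plus strand). It had a level of 0.56 over 10532 reads and 0.564 over 12379 reads in WT, and neither KO list held it, though both held another site within 171 bases with 130 and 112 reads. A second site outside every feature, on chromosome X, had 0.578 of 3841 reads and 0.504 of 3458. The next deepest was in Cct6a, a subunit of the cytosolic chaperonin (chromosome 5, position 129874769, plus strand), with 0.797 of 3363 reads and 0.783 of 3995. Neither KO list held these 2 sites either. No expected KO coverage could be computed for the 3, which were therefore not among the 10.

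The 201 entries that KO lists held for mid-level sites were mostly near the list's own minimum. A level of 0.1 to under 0.2 was recorded in 142 entries (70.6%), 0.2 to under 0.3 in 28, 0.3 to under 0.5 in 20 and 0.5 or above in 11. The median level was 0.148 in KO replicate 1 and 0.155 in KO replicate 2, against the WT medians of 0.687 and 0.684. A list with a minimum of 0.1 cannot show lower levels, so these medians are of the listed entries, not of the sites.

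**Figure D2:**
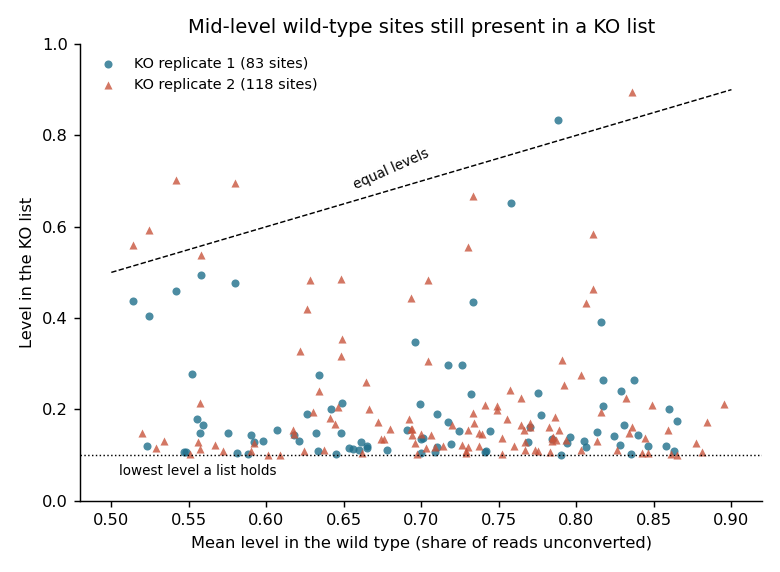
Level in the KO list (y axis, share of reads unconverted) against the mean WT level (x axis) for the 83 mid-level sites in the list of KO replicate 1 (circles) and the 118 in that of KO replicate 2 (triangles); the dashed line marks equal levels and the dotted line the lowest level a list holds. Of the 201 points, 142 lie between 0.1 and 0.2, and few lie near the dashed line.

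Of the 20 sites that both KO lists held, 15 were below both WT levels in both lists and 12 had both KO levels under 0.3. The rule, which asked for at least 0.5 in both WT lists and under 0.5 in at least 1 KO list, largely sets this direction. Bag4, a co-chaperone, had 0.868 and 0.824 in WT replicates 1 and 2 and 0.119 of 244 reads and 0.104 of 241 reads in KO replicates 1 and 2. Arhgap28, a GTPase-activating protein, had 0.812 and 0.813 in WT and 0.15 of 233 reads and 0.131 of 267 reads in KO. At both sites each KO library had at least 233 reads, and the groups did not overlap. In Ehmt2, a histone methyltransferase gene, the replicates were further apart, with 0.572 and 0.879 in WT and 0.298 and 0.123 in KO. Brd2, a bromodomain protein that binds acetylated histones, had 0.788 and 0.763 in WT and 0.235 and 0.109 in KO. The kinase gene Map4k4 had 0.667 and 0.752 in WT and 0.107 and 0.117 in KO, and Ube2n, a ubiquitin-conjugating enzyme, 0.742 and 0.659 in WT and 0.104 and 0.147 in KO. Hdgfl3 (0.675 and 0.807 in WT, 0.106 and 0.209 in KO) and Commd7 (0.53 and 0.585 in WT, 0.149 and 0.114 in KO) gave the same picture. So did Siah1-ps1, a pseudogene whose reads may come from related genes, at 0.803 and 0.737 in WT and 0.161 and 0.162 in KO. A site outside every feature on chromosome 8 had 0.563 and 0.622 in WT and 0.129 and 0.127 in KO.

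Both KO levels were above 0.4 at 6 of the 20 sites, with 0.405 to 0.494 in KO replicate 1 and 0.538 to 0.702 in KO replicate 2. Among these, a site outside every feature on chromosome 6 was below both WT levels in both KO lists, with 0.74 and 0.726 in WT and 0.435 of 23 reads and 0.667 of 15 reads in KO. Of the 6, singled out after their values were seen, 4 lay outside every listed feature, 1 in the pseudogene Gm6278 and 1 in a protein-coding gene. The last is Ppp1r15b, a regulatory subunit of the phosphatase that acts on the translation factor eIF2-alpha. Its site (chromosome 1, position 133066027, plus strand) had 0.506 of 79 reads and 0.542 of 83 reads in WT, and 0.405 of 84 and 0.592 of 98 in KO. The KO values bracket the WT values, and the groups overlap.

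Among sites in 1 KO list, 122 of 161 were under 0.2 there and 5 were at 0.5 or above. The highest were a site outside every feature on chromosome 3 (0.857 and 0.814 in WT, 0.894 of 47 reads in KO replicate 2) and a site of the pseudogene Gm12933 (0.757 and 0.818 in WT, 0.833 of 96 reads in KO replicate 1). In protein-coding genes the highest were Sik1, a salt-inducible kinase (0.731 and 0.784 in WT, 0.651 of 63 reads in KO replicate 1), Nktr (0.755 and 0.868 in WT, 0.583 of 36 reads in KO replicate 2) and Ktn1, the kinectin gene (0.841 and 0.62 in WT, 0.556 of 18 reads in KO replicate 2). The long noncoding RNA Gm40003 had 0.654 and 0.642 in WT and 0.486 of 35 reads in KO replicate 2. For each of these 6 the other KO list did not hold the site. The KO replicates may disagree, or the site may have been thinly read or missed the p-value limit in 1 of them.

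The kind of host was then read by KO level. A protein-coding feature held 1127 of the 1315 sites in neither KO list (85.7%, 83.7 to 87.5). It held 112 of 130 whose highest KO level was under 0.2 (86.2%) and 29 of 33 at 0.2 to under 0.4 (87.9%). Of the 18 sites at 0.4 or above, 10 were in a protein-coding feature (55.6%, 33.7 to 75.4). Of the 29 sites left out because both KO lists had them at 0.5 or above, 7 were (24.1%, 12.2 to 42.1). The KO level defined these classes and no test was made. For 22 of the 29 both WT lists carried a gene coverage value shared by sites across the whole chromosome, against 65 of the 1315 sites in neither list (4.94%).

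A reading independent of the choice was had by choosing sites on a single list and looking them up in the others. WT replicate 1 alone gave 4199 sites at a level of 0.5 to under 0.9 and a coverage of at least 50. WT replicate 2 held 61.2% of them (59.7 to 62.7) and the KO lists 7.1% and 7.12%. WT replicate 2 alone gave 6010, of which WT replicate 1 held 49.8% (48.5 to 51.0) and the KO lists 6.59% and 7.22%. Where the list being read should have had 50 reads or more at the site, 62.5% and 56.4% were found again in the other WT list, against 5.98% to 7.55% in the KO lists. At 200 reads or more, 90.7% and 87.2% were found again in the other WT list, against 3.98% to 6.08% in the KO lists. Where the other WT list held a site, its median level was 0.63 for sites chosen on replicate 1 and 0.635 for those chosen on replicate 2. In the KO lists the medians of the held sites were 0.188 to 0.208.

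The same choice made on a KO list gave the background. KO replicates 1 and 2 had 1292 and 1545 sites at such levels, which is 1.42% and 1.93% of their sites with at least 50 reads, against 4.76% and 4.96% in WT. Of the 1292 sites, KO replicate 2 held 8.59% and the WT lists 9.6% and 9.83%. Of the 1545, KO replicate 1 held 10.7% and the WT lists 9.58% and 10.3%. The intervals for recovery between the KO libraries (7.18 to 10.2 and 9.24 to 12.3) lie far below those for recovery between the WT libraries. Few KO-chosen sites were deep, and only 4 to 38 of them reached 200 expected reads in the list being read. At that depth KO replicate 2 held 4 of 4 sites chosen on KO replicate 1, and KO replicate 1 held 4 of 14 chosen on KO replicate 2. The WT lists held 5 of 7 and 4 of 7 of those chosen on KO replicate 1, and 6 of 22 and 7 of 38 of those chosen on KO replicate 2. These shares are above those over all KO-chosen sites and rest on few sites.

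**Figure D3:**
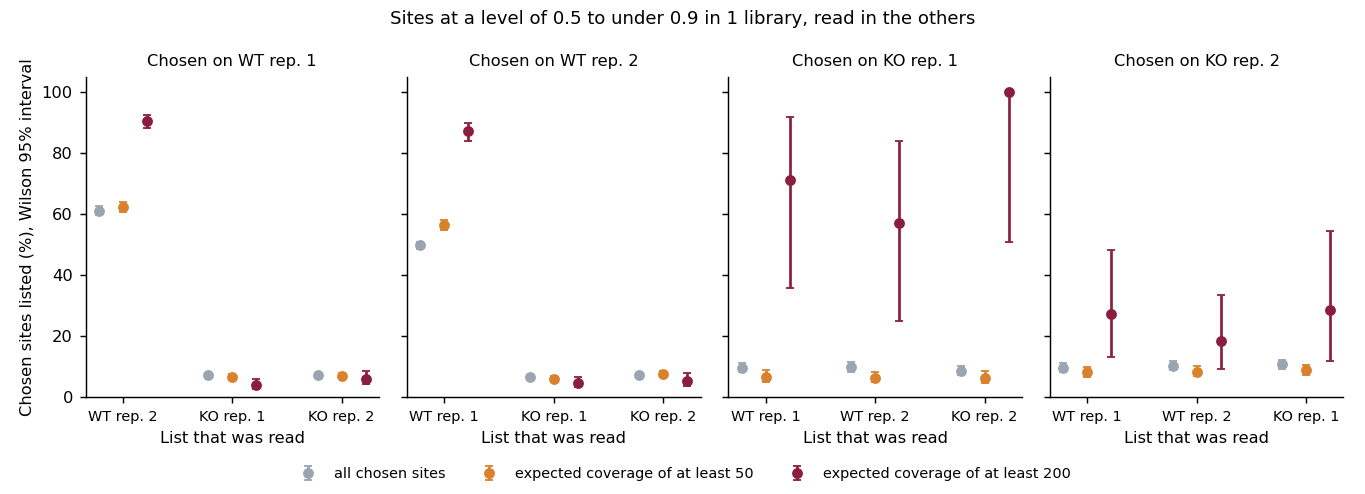
Percentage of the sites chosen on 1 library (panel title; level of 0.5 to under 0.9, coverage of at least 50) that each of the other lists holds (x axis), with 95% Wilson intervals; grey is all chosen sites, and orange and red are those that should have had 50 and 200 reads or more in the list read. For sites chosen on a WT library, the other WT list held 61.2% and 49.8% and the KO lists 6.59% to 7.22%.

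Sites of other WT levels, taken at the same coverage and with the same condition on the KO lists, were compared with the mid-level sites. Neither KO list held 73.3% of the 5327 sites with both WT levels at 0.1 to under 0.2. That share was 78.8% at 0.2 to under 0.3, 87.1% at 0.3 to under 0.5, 87.9% in the mid-level sites and 66.8% at 0.9 or above. The lists hold no level under 0.1, so a site of the lowest band can drop out with a small fall in level. A mid-level site needs a larger fall, so the shares are not equal measures of loss. Within the mid-level sites the share went from 91.6% at a mean level of 0.5 to 0.6 and 90.3% at 0.6 to 0.7 to 85.0% at 0.7 to 0.8 and 82.6% at 0.8 to 0.9. The condition that removes sites at 0.5 or above in both KO lists took 0 sites from the 2 lowest bands, 3 from the band just below the mid-level sites, 29 from the mid-level sites and 62 of 445 from the highest. With the 29 sites kept in the count, 86.2% of the mid-level sites were in neither KO list.

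Position within the host was not used in the choice. Of the 1496 sites, 1278 lay inside exactly 1 protein-coding feature of their strand, 44 inside 1 feature of another kind, 9 inside several protein-coding features and 165 outside every feature in the lists. Of the 1322 with a single host, 581 (43.9%, 41.3 to 46.6) lay within 1000 bases of its end and 1129 (85.4%) within 5000, with a median distance of 1192 bases. Only 13 (0.983%) lay within 300 bases of the feature start. The feature limits are those of whole genes, so a distance to the end counts introns and takes the outermost end of the gene. By chromosome, the mid-level sites made up 6.59% (chromosome 16) to 10.7% (chromosome 8) of the sites with at least 50 reads in both WT lists, leaving out chromosome Y with 1 of 2.

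Across the level bands the share near the end was 35.4% at the lowest levels, then 41.6%, 44.8%, 43.9% for the mid-level sites and 36.3% at 0.9 or above. The share within 300 bases of the start was smaller in each higher band, at 5.93%, 4.02%, 2.06%, 0.983% for the mid-level sites and 0.563%. The mid-level interval for the end share (41.3 to 46.6) lies above that of the lowest band (34.0 to 36.8) and overlaps that of the highest (31.5 to 41.5) by a small margin. This end share depends on the choice in both libraries. Sites chosen on WT replicate 1 alone had 34.3% within 1000 bases of the end, and those chosen on WT replicate 2 alone had 28.7%.

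**Figure D4:**
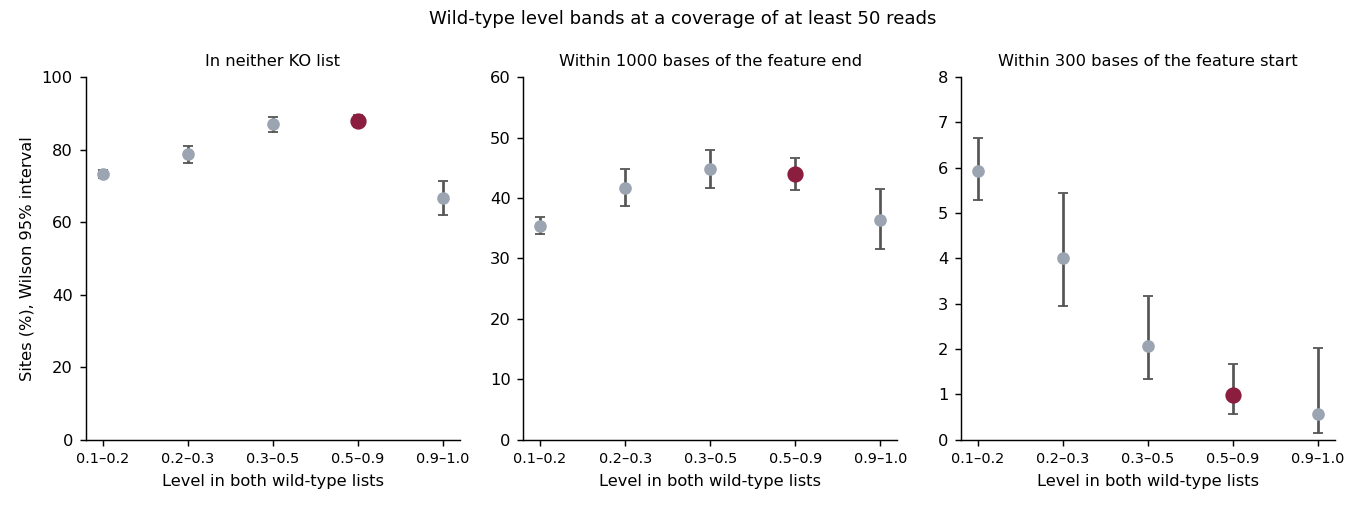
Percentage of sites in 5 bands of WT level (x axis, both WT lists in the band, coverage of at least 50) that neither KO list holds (left), that lie within 1000 bases of the feature end (middle) and within 300 bases of its start (right), with 95% Wilson intervals; the mid-level sites are red and the y axes differ. The mid-level sites are at 87.9%, 43.9% and 0.983%.

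The lists also mark whether a site lies in an intron. The mark was on 688 mid-level sites (46.0%, 43.5 to 48.5), and on 43.3% to 48.8% in the other bands. It was on 265 of the 581 sites within 1000 bases of the feature end (45.6%), and on sites in Sox1, Sox4, Fzd1, Fzd8 and Gas1, genes known to have no intron. No statement on introns is drawn from this mark. Of the 165 sites outside features, 9 lay within 5000 bases past the end of a listed protein-coding feature, with a median of 198040 bases to the nearest such end. The lists carry only features near some listed site, so genes can be missing among them.

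Few mid-level sites had another mid-level site close by. It was within 100 bases for 89 of them (5.95%, 4.86 to 7.26), within 200 bases for 176 (11.8%) and within 1000 bases for 343 (22.9%). The share with a site of the same band within 100 bases was 16.2% at 0.1 to under 0.2 and 1.57% at 0.9 or above. It was 5.16% at 0.2 to under 0.3 and 5.52% at 0.3 to under 0.5, so the mid-level share was close to these. From the lowest level up, these bands hold 5327, 1143, 1124, 1496 (mid-level) and 383 sites. A larger band can hold more neighbours for its size alone, and the part of band size was not tested. Any other site with at least 50 reads in both WT lists was within 100 bases for 613 (41.0%, 38.5 to 43.5), against 34.2% of the sites at 0.1 to under 0.2 and 43.7% of those at 0.3 to under 0.5. The neighbour share was higher where sites were chosen on a single WT list. With WT replicate 2 left out of the choice, 13.3% of 4165 sites had another such site within 100 bases. With WT replicate 1 left out, 16.6% of 5964 sites did. Both sets are larger than that of the 1496 mid-level sites. The part of set size was not tested apart from that of the demand that both libraries agree.

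Linking sites at most 200 bases apart gave 83 pairs and 3 groups of 3. The group in 1110038F14Rik spanned 126 bases on chromosome 15 (76834714 to 76834840), with levels of 0.556, 0.796 and 0.551 in WT replicate 1 and 0.592, 0.899 and 0.58 in replicate 2, and no KO list held any of them. The middle site stood above the others in both replicates. The group in Luc7l3, a protein of the U1 splicing particle, spanned 158 bases (chromosome 11, 94182089 to 94182247). Its sites had 0.803, 0.64 and 0.741 in WT replicate 1 and 0.706, 0.719 and 0.736 in replicate 2, over 243 to 955 reads, and none was in a KO list. The group in Ist1, a factor of endosomal sorting, spanned 178 bases (chromosome 8, 110398698 to 110398876). Its levels were 0.545, 0.839 and 0.828 in WT replicate 1 and 0.721, 0.581 and 0.868 in replicate 2, so the order of the sites differed between replicates. KO replicate 1 held the middle Ist1 site, at 0.117 of 77 reads.

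The closest pairs were 8 bases apart, in Sufu and in Psmd7. Psmd7 encodes a subunit of the proteasome lid. Its sites (chromosome 8, positions 108307363 and 108307371, minus strand) had 0.558 and 0.659 in WT replicate 1 and 0.53 and 0.697 in replicate 2. KO replicate 1 held only the second, at 0.112 of 447 reads. The remaining site was just above the list minimum of 0.1.

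The sites fell in 1105 host genes, which is 20.8% of the 5309 genes with any site of at least 50 reads in both WT lists. Of these hosts 922 held 1 mid-level site, 156 held 2 and 27 held 3 or more. In 135 of the 183 hosts with at least 2, no KO list held any of them. Of the 48 others, 45 also had a mid-level site that no KO list held.

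The highest number of mid-level sites in a host was 4, in 7 genes: Csnk1a1, Srpk1, Rimklb, Wdr6, Zfp41, Nynrin and Pde3b. Csnk1a1 encodes casein kinase 1 alpha, which primes beta-catenin for destruction. Its sites lay 2497, 2054, 1965 and 138 bases before the feature end, with 0.733, 0.71, 0.537 and 0.606 in WT replicate 1 and 0.603, 0.685, 0.552 and 0.61 in replicate 2. No KO list held any of the 4, at 170 to 290 expected reads. Srpk1, a kinase of splicing factors, had levels of 0.558 to 0.757 in WT replicate 1 and 0.516 to 0.699 in replicate 2. Of its 4 sites, KO replicate 2 held 1, at 0.155 of 71 reads. Wdr6, a WD-repeat protein that takes part in tRNA methylation, covered nearly the whole chosen range in 1 gene, from 0.507 of 219 reads to 0.865 of 52 reads in WT replicate 1, and from 0.53 of 279 to 0.874 of 95 in replicate 2 at the same sites.

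The sites of Rimklb, a ligase of N-acetylaspartylglutamate, lay 6037 to 9163 bases before the end, with 0.565 to 0.852 in WT replicate 1 and 0.568 to 0.866 in replicate 2, and no KO list held them. Those of the zinc-finger gene Zfp41 had 0.60 to 0.672 in replicate 1 and 0.522 to 0.745 in replicate 2. They were also in no KO list, at 31 to 91 expected reads. In Nynrin, KO replicate 2 held 1 of 4, at 0.157 of 51 reads. Pde3b, a phosphodiesterase of cyclic nucleotides, differed in position, with 2 sites 403 and 994 bases after the feature start and 2 sites 2688 and 2456 bases before its end. KO replicate 1 held the first of these, at 0.152 of 33 reads. Position in the gene thus varied between hosts even among those with the most sites.

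Of the hosts with 3 sites, the 5 best covered were Luc7l3, Sgta, Slc38a2, Tspyl1 and Armc10. Sgta, a co-chaperone, had a site 830 bases before its end with 0.665 of 1048 reads in WT replicate 1 and 0.687 of 1468 in replicate 2, and none of its 3 sites was in a KO list. Slc38a2, a sodium-coupled transporter of neutral amino acids, had a site with 0.74 of 516 reads and 0.862 of 1280 reads, and again none of 3 was in a KO list. Armc10 and Luc7l3 also had none. In Tspyl1, a nucleosome assembly protein family member, KO replicate 1 held a site at 0.102 of 412 reads that stood at 0.859 and 0.81 in WT. KO replicate 2 held another at 0.148 of 61 reads, which stood at 0.512 and 0.527 in WT.

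Genes of 13 lists were looked up. Among eye field and early neural genes, 5 of the 16 with a covered WT site hosted 6 mid-level sites, of which 4 were in neither KO list. Pax6 encodes a transcription factor that directs eye formation. Its site (chromosome 2, position 105527131, plus strand), 578 bases before the end, had 0.864 of 258 reads in WT replicate 1 and 0.856 of 278 in replicate 2, and neither KO list held it at 312 and 231 expected reads. The gene coverage of Pax6 was alike in the groups, at 2.22 and 2.24 times the median gene in WT and 2.61 and 2.23 in KO (limma log2 change 0.12 ± 0.17 SE, adjusted p = 0.729).

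Sox1, a neural plate transcription factor, held 2 sites 20 bases apart on chromosome 8 (positions 12446126 and 12446146, plus strand). They had 0.789 and 0.808 in WT replicate 1 and 0.646 and 0.822 in replicate 2, and neither was in a KO list. Sox4, a related factor, had 0.644 and 0.604 in WT and 0.108 of 111 reads in KO replicate 2. Tcf7l1 and Tcf7l2 encode DNA-binding factors at the end of the Wnt pathway. Tcf7l1 had 0.811 and 0.764 in WT and was in no KO list, at only 29 and 21 expected reads. Tcf7l2 had 0.822 and 0.85 in WT and 0.162 of 37 reads in KO replicate 2.

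Of the Wnt list, 7 of 17 genes with a covered site hosted 9 sites, 5 of them in neither KO list. Sfrp1, a secreted antagonist of Wnt ligands, had the deepest (chromosome 8, position 23939441, plus strand), 207 bases before the end. It had 723 of 988 reads unconverted in WT replicate 1 (0.732) and 975 of 1322 in replicate 2 (0.738), and neither KO list held it at 573 and 496 expected reads. Receptors of the Frizzled family held 6 of the 9. In Fzd3 a site with 0.789 and 0.805 in WT was in no KO list, and a second, 114 bases away, with 0.762 and 0.57 in WT, was in that of KO replicate 2 at 0.20 of 30 reads. Fzd2 had 0.896 and 0.595 in WT, a wide gap between replicates, and was in no KO list. Fzd8 had 0.748 and 0.884 in WT and 0.392 of 51 reads in KO replicate 1. Fzd1 had 0.603 and 0.707 at a site in no KO list, and 0.787 and 0.606 at another that KO replicate 1 held at 0.348 of 23 reads. Of the other members, the R-spondin receptor Lgr4 (0.676 and 0.528) was in no KO list. The scaffold of the destruction complex Axin1 (0.723 and 0.775) was in that of KO replicate 2, at 0.208 of 53 reads.

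In the BMP, TGF-beta and activin list, 7 of 14 genes with a covered site hosted 9 sites, and 8 of these were in neither KO list. The target genes are given first. Id1, Id2 and Id3 encode inhibitors of bHLH transcription factors that BMP signals induce. Id1 (chromosome 2, position 152579121, plus strand) had 879 of 979 reads unconverted in WT replicate 1 (0.898) and 964 of 1159 in replicate 2 (0.832), 209 bases before its end, with 834 and 848 reads expected in KO. Id3 held 2 sites on chromosome 4, with 0.51 and 0.53 at position 135872575 and 0.785 and 0.83 at position 135872441. Id2 held 2 on chromosome 12, with 0.561 and 0.724 at position 25144498 and 0.508 and 0.65 at position 25144081. All 5 sites of the Id genes lay within 1000 bases of the end, and none was in a KO list. These features are short: the sites also lay only 950 (Id1) to 3058 (Id2) bases after the feature start. Among receptors, Bmpr1a (0.625 and 0.683), Acvr2b (0.747 and 0.699) and Acvr1 (0.797 and 0.784) were in neither KO list. Smad3, which carries the activin and TGF-beta signal to the nucleus, had 0.586 and 0.823 in WT and 0.307 of 88 reads in KO replicate 2.

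In the Hedgehog list 3 of 4 genes with a covered site hosted 6 sites. Sufu, which restrains the Gli factors, held 3 on chromosome 19, 2 of them 8 bases apart. The pair had 0.60 and 0.67 at position 46475121 and 0.564 and 0.533 at position 46475129 in WT replicates 1 and 2, and KO replicate 1 held the second at 0.106 of 66 reads. Gli3, the main repressor among the Gli factors, had 0.841 and 0.682 at a site and 0.754 and 0.833 at another 110 bases away, over 57 to 96 reads. Gas1, a Hedgehog co-receptor, had 0.713 and 0.752, 162 bases before its end. No KO list held the sites of Gli3 or Gas1.

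The FGF and receptor tyrosine kinase list had 2 of 7 genes with 3 sites. Fgfr1, a receptor of fibroblast growth factors, had 0.551 and 0.832 in WT and 0.178 of 45 reads in KO replicate 2. Of 2 sites assigned to Fgfr2, a receptor of the same family, 1 lay 781 bases before its end (0.698 and 0.646). The other lay 2075121 bases before it in a feature of 2960899 bases, so its host is uncertain. Neither was in a KO list. In the Notch list 1 of 10 genes had a site, Numb, an inhibitor of Notch, with 0.781 and 0.622 in WT and no KO entry.

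**Figure D5:**
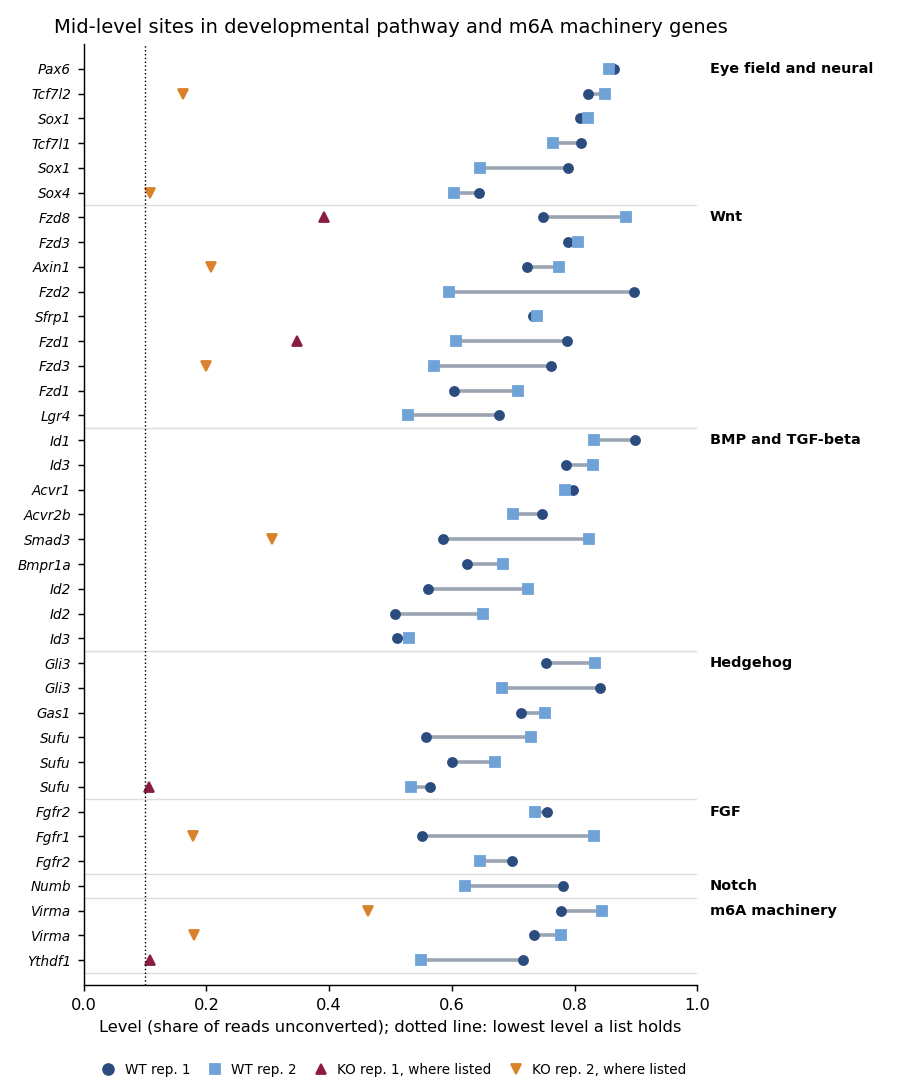
Level (x axis, share of reads unconverted) of each mid-level site in genes of 7 lists, 1 row per site, in WT replicate 1 (circles) and 2 (squares), joined by a line, and in KO replicate 1 or 2 (triangles) where a KO list holds it; the dotted line is the lowest level a list holds. No list other than that of the m6A machinery has a KO point at every site, and the KO points range from 0.106 (Sufu) to 0.463 (Virma).

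All sites in the m6A machinery list had a KO entry. Of its 14 genes with a covered WT site, Virma and Ythdf1 hosted 3 mid-level sites, and KO lists held all 3, each in 1 library. Virma encodes a scaffold of the methyltransferase complex. Its sites on chromosome 4 had 0.777 and 0.845 in WT and 0.463 of 54 reads in KO replicate 2 at position 11519090, and 0.733 and 0.777 in WT and 0.179 of 39 reads in KO replicate 2 at position 11527085. The reader gene Ythdf1 had 0.716 of 67 reads and 0.549 of 133 reads in WT and 0.108 of 435 reads in KO replicate 1 (chromosome 2, position 180552934). Its gene coverage was 2.19 and 2.37 times the median gene in WT and 4.23 and 3.39 in KO, higher in both KO libraries (log2 change 0.73 ± 0.18 SE, limma adjusted p = 0.0355). With 3 sites, no difference from other genes was tested.

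The remaining lists had no KO entry. Chromatin regulators hosted 5 sites in 5 of 27 genes. The histone demethylase Kdm3a had 0.883 and 0.689, Kdm5c 0.734 and 0.691 and Kdm5a 0.568 and 0.588. The Polycomb cofactor Jarid2 had 0.642 and 0.725, and the remodeller Chd7 0.61 and 0.688. Cell cycle genes hosted 4 in 4 of 13: Ccne1, the cyclin of entry into S phase, with 0.753 and 0.628, 62 bases before its end, the phosphatase Cdc25a with 0.603 and 0.545, E2f3 with 0.642 and 0.50 and the inhibitor Cdkn1a with 0.521 and 0.507. The pluripotency list had 2 in 2 of 11, the zinc-finger factors Sall4 (0.667 and 0.654) and Sall1 (0.55 and 0.554). Of the reference genes, Tbp had 0.691 and 0.521. Mesoderm and endoderm markers, and neural crest and surface ectoderm markers, had 0 genes with a covered WT site.

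Transcript coverage of the hosts was compared between the groups with limma on the log2 gene coverage that the lists carry. Of 8287 protein-coding genes with a value in all 4 lists, 256 (3.09%) were lower and 219 (2.64%) higher in KO at an adjusted p under 0.05. Among the 990 hosts of mid-level sites tested, 51 were lower (5.15%) and 26 higher (2.63%), with a median log2 change of -0.05. The share that was higher was near the background, and the share that was lower above it. With only genes at or above the median coverage tested, each library was also centred on the median of those genes. In that fit 75 hosts were lower and 76 higher of 797, against 370 and 376 of all 4144 genes. The hosts did not lean to lower coverage there, and the part of the centring was not tested. Among all 4559 tested hosts of any site with at least 50 reads in both WT lists, 201 were lower (4.41%) and 85 higher (1.86%). The demand for 50 reads in WT favours genes that are high in WT, for both sets of hosts, and no test of the sets was made. The counts rest on all 4 libraries: with KO replicate 2 left out 6 hosts were lower and 4 higher, and with KO replicate 1 left out 11 were lower and 1 higher. Leaving out WT replicate 2 gave 25 lower and 13 higher, and leaving out WT replicate 1 gave 42 and 17. Without centring the libraries, which moves the median change over all genes from -0.02 to -0.13, 55 hosts were lower and 13 higher.

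Several of the named hosts were among those lower in KO. Gene coverage is given in multiples of the median gene. Sfrp1 had 5.85 and 7.49 in WT replicates 1 and 2 and 3.34 and 3.33 in KO (log2 change -0.99 ± 0.18 SE, limma adjusted p = 0.0101). Id2 had 1.96 and 1.74 in WT and 0.992 and 0.828 in KO (-1.03 ± 0.17, adjusted p = 0.00879). Tcf7l1 had 5.13 and 5.74 in WT and 2.90 and 2.40 in KO (-1.04 ± 0.17, adjusted p = 0.00855), and Tcf7l2 had 2.14 and 1.83 in WT and 1.14 and 1.14 in KO (-0.79 ± 0.17, adjusted p = 0.0214). In these 4 genes both KO libraries lay below both WT libraries. In bulk samples fewer cells of a type and less RNA per cell cannot be told apart. Zfp41, Map4k4, Slc38a2 and Chmp1a were also lower, with log2 changes of -0.90, -0.78, -0.73 and -0.81.

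Psmd7 was higher in KO, like Ythdf1, at 5.68 and 5.92 in WT and 10.9 and 8.61 in KO (0.74 ± 0.18, limma adjusted p = 0.0348). For the hosts of the 10 deep sites listed above no change passed the threshold: Slc2a1 had 27.9 and 32.7 in WT and 21.4 and 15.5 in KO (-0.73 ± 0.20, adjusted p = 0.0512), and Trir had 10.2 and 9.50 in WT and 15.1 and 14.5 in KO (0.59 ± 0.16, adjusted p = 0.0571). In Slc2a1 both KO libraries lay below both WT libraries, and in Trir above them. Among the named hosts, sites absent from both KO lists were in some called lower (such as Sfrp1 and Id2) and in some not called different (such as Slc2a1 and Trir). Psmd7, called higher, had such a site and another that KO replicate 1 held. A link between host coverage and absence of the site was not tested.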

How the data were processed

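The 4 GLORI lists were used as deposited. Per the file headers each line gives a site, the count of A and G reads, the count of unconverted A reads, their ratio as a fraction, a conversion rate as a fraction, a gene coverage signal, a p-value with its adjusted p-value and the nearest feature. Levels were recomputed from the deposited counts. The aligner and caller are not given in the sources used here, and mm10 is the build in the submitters' processing notes. In each list 28 to 53 repeated lines, which differ only in the feature, were collapsed. Sites were joined by chromosome, position and strand (Python 3.11.15, pandas 2.3.3). A host is the only protein-coding feature around a site on its strand, or else the only feature of another kind. Kinds came from a GRCm38 table, which matched 73.8% of 29178 features by name. The mid-level sites, gene lists and tests were chosen with earlier results of these data known.

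Gene coverage, a signal the authors deposited whose scale is not stated, was divided by each library's median gene, and its log2 was fitted with limma 3.58.1 in R 4.3.3, with Benjamini-Hochberg adjustment over 8287 genes. Values shared across a chromosome, or by several genes, were left out. The fit was also run on simulated data. Replicate numbers did not pair the libraries (r = -0.0279 over genes between the replicate differences of WT and KO).

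Sites named are those of the hosts with the most sites, the 10 best covered in neither KO list among those with at least 50 expected reads in both, those in both KO lists (up to 12 by coverage) and the 6 highest in 1, those in genes of the lists, those nearest the thresholds and the 5 tightest groups. Alternatives were coverage minimums of 20 and 100, a level range of 0.6 to 0.8, other distances, single lists, the replicate block, centring, a pseudocount of 1 and leaving out each library. 1 gene of the lists is not reported here.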

Additional observations from a re-analysis of the deposited data

How the results depend on the processing

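The share of sites in neither KO list was 90.5% at a coverage minimum of 100 (90.8% at 50 expected KO reads), 85.9% with a listed neighbour in both KO lists and 94.2% at 200 expected reads, the last 2 chosen after seeing the data. Leaving out WT replicate 1 or 2 gave 88.5% each time, or 87.7% and 88.3% at 50 expected reads. With KO replicate 1 or 2 left out, only absence from the remaining KO list was asked, so the share could not fall. It was 92.1% and 94.5%, or 91.9% and 95.0% at 50 expected reads. The median KO level, 0.149 over both lists, was 0.178 and 0.131 at minimums of 20 and 100, 0.155 at WT levels of 0.6 to 0.8, and 0.148 to 0.179 without 1 library. The neighbour share was 1.17% at WT levels of 0.6 to 0.8, a smaller set of 512 sites. It was 3.21% within 50 bases, 11.8% within 200, 41.0% for any covered site and 13.3% to 16.6% from 1 WT list. The end share was 40.3% and 47.6% at minimums of 20 and 100, 41.0% at levels of 0.6 to 0.8, 40.8% with the feature deposited beside the site (480 sites) and 28.7% to 34.3% from 1 WT list.

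Recovery of WT replicate 1 sites in replicate 2 was 28.0% and 84.9% at minimums of 20 and 100. The reverse was 20.6% and 76.6%, and 56.4% at 50 expected reads. In KO lists, a minimum of 20 gave 4.58% and 4.32% (chosen on WT replicate 1) and 4.02% and 3.66% (replicate 2). A minimum of 100 gave 8.87% and 50 expected reads 5.98% for replicate 2 sites in KO replicates 2 and 1. WT stayed above KO in each.

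For gene coverage, no centring gave 101 genes higher (13 hosts), and testing only genes at or above the median coverage gave 370 lower and 376 higher (75 and 76 hosts). Without 1 library, 26 to 187 genes were lower and 20 to 207 higher, and 6 to 42 hosts were lower and 1 to 17 higher. The replicate block gave 271 lower and 257 higher (53 and 28 hosts), and the numbers do not pair the libraries. A coverage of 50 limits single levels, and the list minimum hides KO levels under 0.1.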
